A study of Mus musculus with 9 samples.

Results

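The genes described here are 30 genes of cholesterol synthesis and sterol sensing, chosen by symbol from a list that follows the route of synthesis. They comprise 7 enzymes from acetyl-CoA to farnesyl diphosphate, 12 enzymes from farnesyl diphosphate to cholesterol and 4 genes of sterol sensing. The others are 4 genes of sterol transport and 3 of the branches that lead to other isoprenoids. All 30 were among the 55335 genes listed, and all 30 had enough counts to be tested, with 22 to 3121 counts per library. No enzyme outside that list is analysed here as part of the route.

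RNA came from D2A1-d, a line of murine breast carcinoma cells, in 3 groups of 3 samples. The controls carried a non-targeting hairpin (NTC) and are labelled wild type, and the other groups carried shMed1 #2 or shMed1 #4, hairpins against Med1, and are labelled as knockdowns. All groups came from the same line, were transduced and were grown in medium with fetal bovine serum, a source of lipoprotein cholesterol. The labels call the samples biological replicates without tying them to separate cultures, and do not say whether transduced cells were cloned or pooled, so the p-values measure no more than the spread among these 9 samples, part or all of which could be technical.

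Cells make cholesterol from acetyl-CoA through mevalonate, isoprenoid diphosphates and squalene. When sterols in the endoplasmic reticulum run low, the escort protein SCAP carries the transcription factor SREBP2 to the Golgi, where proteases release its active part, which raises transcription of most genes of the route; INSIG proteins hold SCAP back when sterols are plentiful. MED1 belongs to Mediator, the complex through which such factors reach RNA polymerase II.

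Library totals ranged from 8123918 to 8879982 counts, and 13611 genes were tested. Med1 stood at 85.6, 87.5 and 79.8 CPM in the NTC libraries, 22.1, 25.2 and 24.7 in the shMed1 #2 libraries and 25.0, 26.6 and 25.5 in the shMed1 #4 libraries (CPM, counts relative to the scaled library size), and fell by 1.81 with shMed1 #2 (adjusted p = 5.67e-36) and 1.71 with shMed1 #4 (adjusted p = 6.39e-34) on the log2 scale in edgeR's quasi-likelihood fit. Of 11 mammary epithelial markers, 2 (Krt8 and Krt18) passed the filter and 4 (Epcam, Cldn3, Cldn4 and Pgr) were at 0 in every library; the 11 summed to 57.1 to 58.4 CPM in the controls, to 19.8 to 23.2 under shMed1 #2 and to 41.6 to 52.2 under shMed1 #4. All 8 mesenchymal markers passed, with sums of 4252 to 4438, 4852 to 5062 and 5049.6 to 5249 CPM, and moved apart: Vim averaged 1872 CPM in NTC and was higher with both hairpins (2778 and 2444 CPM), Fn1 was lower with shMed1 #2 and higher with shMed1 #4, Cdh2 the reverse, Snai1 was lower with shMed1 #2, and Twist1, Zeb1, Zeb2 and Snai2 were called with neither. Leukocyte markers summed to between 13.9 and 19.7 CPM in all libraries, where Csf1r and Cd68 were the 2 of 8 that passed; 4 of the 8 were at 0 in every library, and Ptprc had 0 to 2 counts per library. The sums of 4 endothelial, 4 adipocyte and 3 hepatocyte markers did not exceed 1.04 CPM in any library. The part of these marker shifts in the sterol results was not tested, and in bulk RNA fewer cells of a type cannot be told from less RNA per cell.

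Of the 19 enzymes of synthesis, 17 were lower with shMed1 #2 and 13 with shMed1 #4, where Mvk, Pmvk, Tm7sf2 and Dhcr7 were not called. With shMed1 #2, 21 of the 30 genes were lower and 3 higher (edgeR, adjusted p below 0.05), while of all genes tested 43.7% were called, 21.9% lower and 21.8% higher. With shMed1 #4, 18 were lower and 3 higher, beside 28.2% of all genes called, 14.1% lower and 14.0% higher; without shMed1 #4 replicate 1, 1 gene (Hsd17b7) was higher. The libraries of shMed1 #2 and NTC did not overlap for 26 of the 30 genes (51.5% of all genes), 21 of them lower (25.8%), and those of shMed1 #4 and NTC did not overlap for 21 (38.9%), 17 of them lower (19.6%). The median log2 fold change of the 30 genes was -0.56 with shMed1 #2 and -0.28 with shMed1 #4. The medians of all genes tested were -0.0035 and 0.00086. Lower with both hairpins were 17 genes (10.1% of all genes), higher with both were Hsd17b7 and Dhdds (10.4%), 0 were called in opposite directions (0.867%), and Insig2, Tmem97, Ggps1 and Nus1 were called with neither. Both comparisons use the same NTC libraries. The list was drawn up with earlier results of these data known, so its direction is a description.

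**Figure D1:**
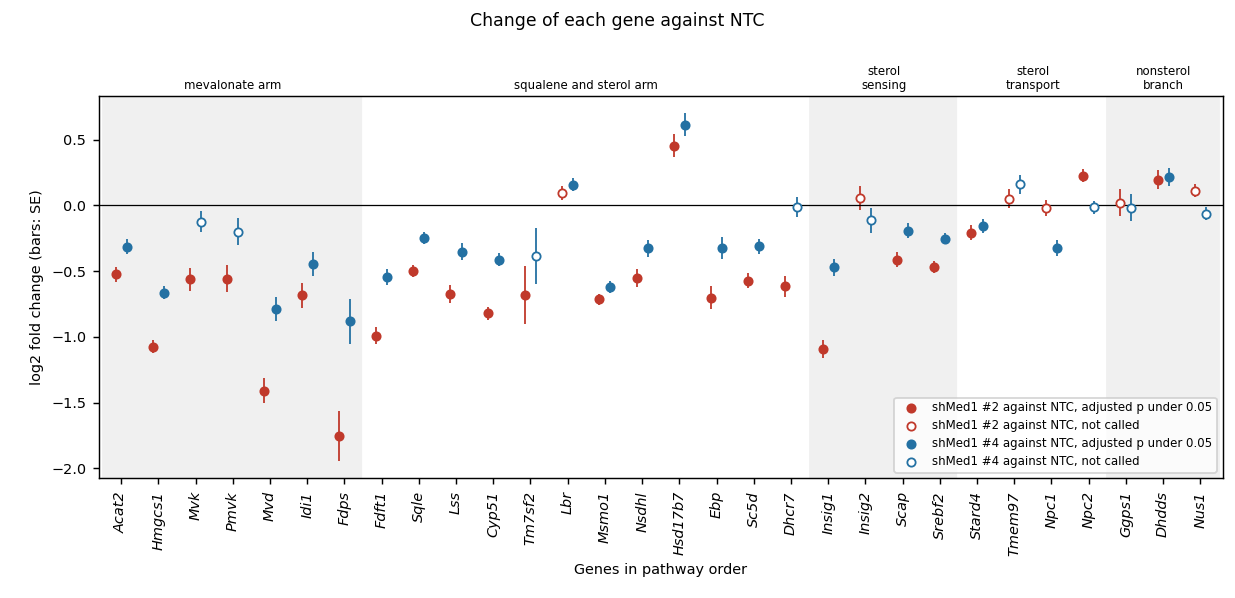
Log2 fold change against NTC (y axis, bars show the standard error) of the 30 genes in pathway order (x axis), in red for shMed1 #2 and blue for shMed1 #4; filled points had an adjusted p under 0.05. The enzymes from Acat2 to Dhcr7 lie below 0 except Lbr and Hsd17b7, and the lowest point is Fdps with shMed1 #2 (-1.75).

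The promoters of 4 genes are shown because those genes stand where the results turn: Hmgcs1 at the entry to mevalonate and Insig1 in sterol sensing fell with both hairpins, Srebf2 encodes the factor itself, and Hsd17b7 went the other way. Each run is the RefSeq window from 250 bases before to 50 after the start of transcription (GRCm38.p6), in the direction of the gene, with CCAAT boxes, the sites of NF-Y, and a sterol regulatory element in capitals on either strand.

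Hmgcs1 (chr13:119690101-119690400, plus strand): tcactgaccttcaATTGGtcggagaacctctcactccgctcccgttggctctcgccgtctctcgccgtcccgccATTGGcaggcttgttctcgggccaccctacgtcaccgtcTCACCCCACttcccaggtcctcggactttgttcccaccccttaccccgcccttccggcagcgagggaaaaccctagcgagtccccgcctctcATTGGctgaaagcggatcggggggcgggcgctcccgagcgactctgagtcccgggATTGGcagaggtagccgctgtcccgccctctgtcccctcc
Insig1 (chr5:28071162-28071461, plus strand): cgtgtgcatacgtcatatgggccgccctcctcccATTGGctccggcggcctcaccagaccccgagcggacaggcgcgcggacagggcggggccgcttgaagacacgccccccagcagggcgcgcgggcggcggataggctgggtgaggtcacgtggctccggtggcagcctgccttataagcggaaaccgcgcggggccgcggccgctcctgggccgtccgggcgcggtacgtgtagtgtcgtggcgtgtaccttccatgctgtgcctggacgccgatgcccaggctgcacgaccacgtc
Srebf2 (chr15:82147019-82147318, plus strand): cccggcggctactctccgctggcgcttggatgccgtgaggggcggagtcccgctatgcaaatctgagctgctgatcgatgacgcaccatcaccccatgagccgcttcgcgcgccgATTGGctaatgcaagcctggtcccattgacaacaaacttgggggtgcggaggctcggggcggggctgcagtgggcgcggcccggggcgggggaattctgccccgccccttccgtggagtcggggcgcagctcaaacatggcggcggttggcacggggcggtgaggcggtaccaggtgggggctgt
Hsd17b7 (chr1:169969156-169969455, minus strand): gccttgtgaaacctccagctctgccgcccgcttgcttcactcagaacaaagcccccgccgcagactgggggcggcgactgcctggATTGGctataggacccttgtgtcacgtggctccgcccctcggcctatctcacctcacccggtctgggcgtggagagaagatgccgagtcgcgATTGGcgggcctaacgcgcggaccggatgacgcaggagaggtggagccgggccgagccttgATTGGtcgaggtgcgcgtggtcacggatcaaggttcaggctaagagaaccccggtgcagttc

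A window was found for 25 of the 30 genes, and some had more than 1 start. The sterol regulatory element TCACNCCAC, searched on both strands, occurred in 1 of the 25, Hmgcs1, where it begins 137 bases before the start; it occurred in 1.36% of 9460 tested genes with a window. CCAAT occurred in 23 of 25, or 92%, and in 43.5% of the tested genes. GGGCGG, the box bound by Sp1, also occurred in 23 of 25 (92%), against 69.5%. The E-box CACGTG occurred in 6 of 25 (24%), against 12%, and TCAAGGTCA, a site of estrogen-related receptors, in 0 of 25, against 0.328%. Of the 17 genes lower with both hairpins, 13 had a window, and CCAAT was found in 11 of those 13 and in all 12 of the remaining genes with a window; Hsd17b7, which rose, holds 3. These are matches of letters, not sites shown to be bound, and a missing match says only that the letters are not in this window.

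In the arm from acetyl-CoA to farnesyl diphosphate, all 7 enzymes were lower with shMed1 #2, beside 21.9% of all genes. With shMed1 #4, 5 of 7 were lower, beside 14.1% of all genes, and the medians were -0.69 and -0.45. Their summed level, which the abundant Hmgcs1 and Acat2 dominate, was 447, 438 and 469 CPM in the controls, 249.9, 239.9 and 252 under shMed1 #2 and 313, 328 and 317 under shMed1 #4. The 3 groups of libraries did not overlap, and the hairpin means were 54.8% and 70.7% of the NTC mean.

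Hmgcs1, which condenses acetoacetyl-CoA and acetyl-CoA to HMG-CoA (ENSMUSG00000093930.2, chr13:119690379-119708260, plus strand, GRCm38), stood at 206, 199.9 and 213 CPM in the controls, against 92.8, 97.4 and 104 under shMed1 #2 and 125, 139 and 127 under shMed1 #4. Every NTC library was above every shMed1 #4 library, and those above every shMed1 #2 library. Hmgcs1 fell by 1.07 (SE 0.0504, adjusted p = 3.30e-32) and by 0.66 (SE 0.0489, adjusted p = 4.09e-20) on the log2 scale. An antisense gene, Gm48342, shares 557 exon bases with Hmgcs1 and was lower too (-1.10 and -0.73); whether the counting used strand is not stated, so reads of the pair cannot be told apart. Acat2, the cytosolic thiolase that supplies acetoacetyl-CoA, stood at 65.8, 62.0 and 65.9 CPM under shMed1 #2 and 73.8, 74.6 and 75.4 under shMed1 #4, where the controls had 92.4, 91.0 and 95.1. Its groups did not overlap either, with falls of 0.52 (adjusted p = 2.06e-12) and 0.32 (adjusted p = 6.51e-06).

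Both kinases of mevalonate were called lower with shMed1 #2 and were not called with shMed1 #4. Mvk, which adds the first phosphate, stood at 37.7, 36.0 and 41.5 CPM in the NTC libraries, 26.7, 27.1 and 24.3 in the shMed1 #2 libraries and 36.9, 35.4 and 33.5 in the shMed1 #4 libraries. It fell by 0.56 with shMed1 #2 (SE 0.0855, adjusted p = 4.59e-08), while with shMed1 #4 its log2 fold change was -0.12 with a 95% interval of -0.29 to 0.038 (adjusted p = 0.274) and its libraries overlapped NTC. Pmvk, which adds the second phosphate, stood at 25.3, 25.9 and 31.4 CPM in the controls, against 19.7, 16.3 and 20.3 under shMed1 #2 and 22.2, 22.0 and 27.7 under shMed1 #4. It fell by 0.56 with shMed1 #2 (adjusted p = 7.86e-06), and with shMed1 #4 its log2 fold change was -0.20 (95% interval -0.40 to 0.0015, adjusted p = 0.138). Replicate 3 was the highest Pmvk library in each group; without shMed1 #4 replicate 3 Pmvk was called lower with that hairpin as well (log2 fold change -0.32, adjusted p = 0.0239).

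Mvd, which decarboxylates the product to isopentenyl diphosphate, had the largest fall in the arm after Fdps. It stood at 19.2, 13.8 and 14.9 CPM under shMed1 #2 and 24.4, 25.2 and 24.1 under shMed1 #4, where the controls had 42.1, 43.0 and 42.3. No library of a hairpin group reached the NTC range, and the falls were 1.41 (SE 0.0957, adjusted p = 1.40e-22) and 0.79 (SE 0.0888, adjusted p = 8.47e-12). Idi1, which interconverts the building blocks of the isoprenoid chain, stood at 34.1, 32.4 and 35.8 CPM in the NTC libraries, 23.3, 20.3 and 19.9 in the shMed1 #2 libraries and 25.4, 25.4 and 24.3 in the shMed1 #4 libraries. Its falls were 0.69 (adjusted p = 1.35e-09) and 0.45 (adjusted p = 4.46e-05). Fdps, which joins these units to farnesyl diphosphate, stood at 9.09, 9.88 and 10.3 CPM in the controls, against 2.53, 3.02 and 3.11 under shMed1 #2 and 4.89, 5.90 and 5.10 under shMed1 #4. It had the lowest log2 fold change of the 30 genes with each hairpin, -1.75 (SE 0.192) and -0.88 (SE 0.170). Fdps is measured poorly here: it averaged 50.7 counts per library, and 1124 of its 4208 exon bases are shared with Gm43738 on the same strand, so reads there may not have been counted for it.

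**Figure D2:**
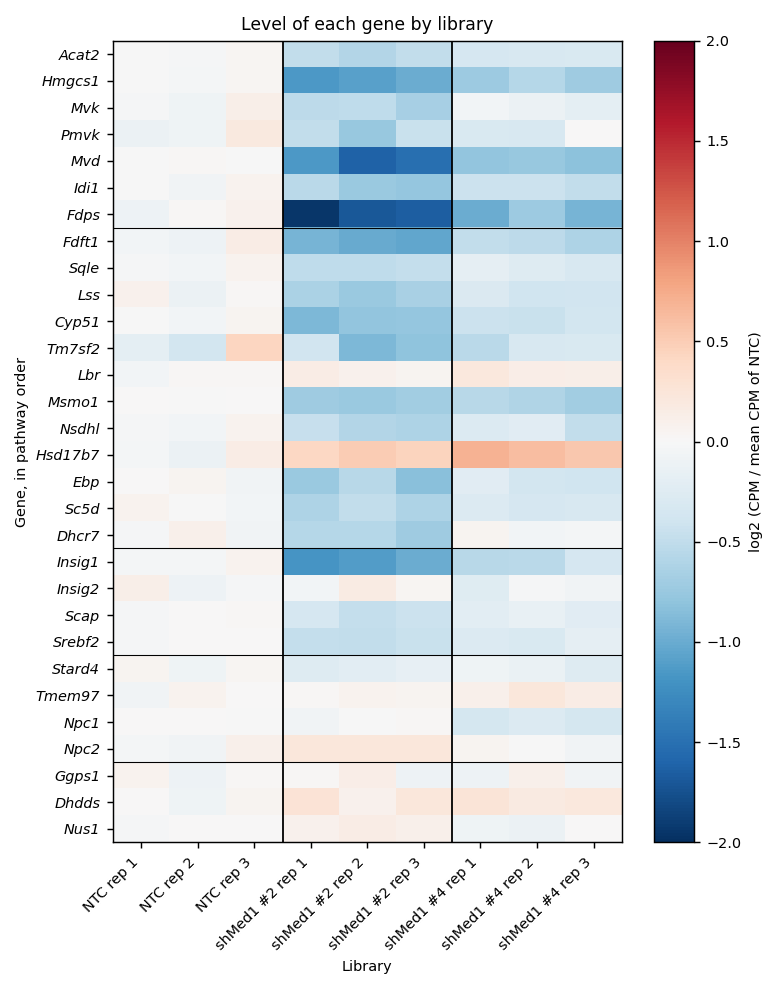
Log2 ratio of CPM to the NTC mean (colour, blue lower and red higher) for the 30 genes (y axis, pathway order) in the 9 libraries (x axis). The shMed1 #2 columns are the bluest for Fdps, Mvd, Insig1 and Hmgcs1, and Hsd17b7 is red in all 6 hairpin libraries.

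From farnesyl diphosphate to cholesterol, 10 of 12 enzymes were lower and 1 higher with shMed1 #2, beside 21.9% and 21.8% of all genes. With shMed1 #4, 8 were lower and 2 higher, beside 14.1% and 14.0%, and the medians were -0.64 and -0.33. The 12 summed to 1284 ± 32.5 CPM in the controls, to 876 ± 3.12 under shMed1 #2 and to 1039 ± 35.8 under shMed1 #4 (SD, n = 3 each), so the hairpin means were 68.2% and 80.9% of NTC. Fdft1, squalene synthase and the first enzyme committed to sterols, stood at 49.4, 46.4 and 45.9 CPM under shMed1 #2 and 66.8, 65.3 and 61.1 under shMed1 #4, where the controls had 90.3, 87.5 and 104. It fell by 0.99 (SE 0.0650, adjusted p = 2.16e-23) and 0.54 (SE 0.0621, adjusted p = 1.39e-11). Its neighbour Ctsb, on the opposite strand with 774 shared exon bases, was called higher instead (0.28 and 0.15).

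Sqle, the squalene epoxidase, stood at 232, 229 and 250.3 CPM in the NTC libraries, 167, 167 and 171 in the shMed1 #2 libraries and 210.3, 199 and 191 in the shMed1 #4 libraries. The groups did not overlap, yet the falls were among the smaller of the enzymes, 0.50 (SE 0.0459) and 0.25 (SE 0.0453, adjusted p = 8.07e-06). Lss, which closes the rings to lanosterol, stood at 76.8, 66.4 and 73.8 CPM in the controls, against 46.4, 43.3 and 46.2 under shMed1 #2 and 59.5, 55.1 and 55.4 under shMed1 #4. Lss fell by 0.67 (adjusted p = 2.39e-14) and 0.35 (adjusted p = 9.45e-06), and its antisense neighbour 4930483K19Rik, with 381 shared exon bases, had log2 fold changes of -0.49 and -0.39. Cyp51, the lanosterol demethylase, stood at 106, 115 and 117 CPM under shMed1 #2 and 148, 146 and 154 under shMed1 #4, where the controls had 198, 192 and 207. Its falls were 0.82 (SE 0.0488, adjusted p = 7.37e-26) and 0.41 (SE 0.0474, adjusted p = 1.79e-11), while Akap9, which shares 166 exon bases with it on the opposite strand, was not lower with either hairpin (0.25 and 0.0084).

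The next step can be done by either of a pair of reductases, TM7SF2 or the lamin B receptor LBR, whose genes are read at very different levels here. Lbr stood at 115, 122 and 122 CPM in the NTC libraries, 132, 128 and 124 in the shMed1 #2 libraries and 139, 132 and 129.8 in the shMed1 #4 libraries. It was higher by 0.16 with shMed1 #4 (SE 0.0504, adjusted p = 0.0127), and its log2 fold change with shMed1 #2 was 0.094 (adjusted p = 0.125). The call of Lbr was lost without NTC replicate 1 (adjusted p = 0.0930) or shMed1 #4 replicate 1 (0.0963). Tm7sf2 was scarce, at 4.73, 4.22 and 7.29 CPM in the controls, against 4.14, 2.90 and 3.11 under shMed1 #2 and 3.72, 4.33 and 4.41 under shMed1 #4. It fell by 0.68 with shMed1 #2 (SE 0.222, adjusted p = 0.00899), a call lost without NTC replicate 3, the highest library (log2 fold change -0.40, adjusted p = 0.215), without shMed1 #2 replicate 2 (0.0503) and in DESeq2 (0.0779). With shMed1 #4 its log2 fold change was -0.39 (adjusted p = 0.181). Vps51 shares 532 exon bases with Tm7sf2 on the same strand and had log2 fold changes of -0.31 and -0.084.

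The methyl groups at carbon C4 are removed by a complex of 3 enzymes, and its genes did not move together. Msmo1, the oxidase that starts the removal, stood at 167, 163 and 169 CPM under shMed1 #2 and 186, 179 and 168 under shMed1 #4, where the controls had 275, 271 and 274. It fell by 0.72 (SE 0.0448, adjusted p = 1.56e-24) and 0.62 (SE 0.0446, adjusted p = 1.05e-20). Nsdhl, the dehydrogenase that releases the carbon, stood at 75.0, 73.6 and 80.7 CPM in the NTC libraries, 55.8, 50.7 and 49.8 in the shMed1 #2 libraries and 63.4, 65.5 and 54.3 in the shMed1 #4 libraries. Nsdhl fell by 0.55 (adjusted p = 3.39e-11) and 0.33 (adjusted p = 4.03e-05). Hsd17b7, the ketoreductase that completes the cycle (ENSMUSG00000026675.12, chr1:169949535-169969241, minus strand, GRCm38), stood at 23.3, 22.1 and 26.5 CPM in the controls, against 32.0, 33.9 and 32.7 under shMed1 #2 and 38.6, 36.8 and 34.7 under shMed1 #4. All 6 hairpin libraries were above all 3 NTC libraries. Hsd17b7 rose by 0.45 (SE 0.0898, adjusted p = 1.58e-05) and 0.61 (SE 0.0884, adjusted p = 2.41e-08), the highest log2 fold change of the 30 genes with each hairpin. Erg28, which tethers the complex and is not one of the 30, stood at 46.0, 46.3 and 39.6 CPM under shMed1 #2 and 52.1, 49.6 and 59.1 under shMed1 #4, where the controls had 70.9, 68.7 and 71.2. Erg28 fell (-0.68 and -0.39).

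The last enzymes were lower with shMed1 #2 without exception. Ebp, the sterol isomerase, stood at 40.8, 42.2 and 38.6 CPM in the NTC libraries, 24.3, 27.6 and 22.8 in the shMed1 #2 libraries and 34.8, 31.4 and 30.8 in the shMed1 #4 libraries. Ebp fell by 0.70 (adjusted p = 7.74e-11) and 0.32 (adjusted p = 0.00143). Sc5d, the desaturase that follows, stood at 104, 98.6 and 94.9 CPM in the controls, against 64.7, 70.5 and 64.5 under shMed1 #2 and 81.6, 78.7 and 79.2 under shMed1 #4. Sc5d fell by 0.57 (adjusted p = 5.17e-14) and 0.31 (adjusted p = 7.25e-06). Dhcr7, the reductase that makes cholesterol from 7-dehydrocholesterol, stood at 29.0, 29.1 and 26.3 CPM under shMed1 #2 and 44.8, 41.6 and 41.9 under shMed1 #4, where the controls had 42.3, 46.0 and 41.0. The shMed1 #2 libraries lay below all others, and those of shMed1 #4 lay within the NTC range. Dhcr7 fell by 0.62 with shMed1 #2 (SE 0.0812, adjusted p = 7.76e-10), and with shMed1 #4 its log2 fold change was -0.011 (95% interval -0.16 to 0.14, adjusted p = 0.935).

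Of the 4 genes of sterol sensing, 3 were lower with each hairpin, beside 21.9% of all genes with shMed1 #2 and 14.1% with shMed1 #4. Insig1 stood at 78.4, 78.3 and 84.9 CPM in the NTC libraries, 35.5, 37.3 and 40.7 in the shMed1 #2 libraries and 54.8, 55.7 and 63.9 in the shMed1 #4 libraries. The 3 groups did not overlap, and Insig1 fell by 1.09 (SE 0.0693, adjusted p = 3.66e-24) and 0.47 (SE 0.0649, adjusted p = 7.34e-09). Insig2 encodes the other INSIG protein, and its transcription does not depend on SREBP as that of Insig1 does. It stood at 29.6, 25.3 and 27.0 CPM in the controls, against 26.3, 30.5 and 28.1 under shMed1 #2 and 23.0, 26.8 and 25.9 under shMed1 #4. All 3 groups overlapped, and the log2 fold changes were 0.054 (95% interval -0.13 to 0.24, adjusted p = 0.671) and -0.11 (95% interval -0.30 to 0.075, adjusted p = 0.409).

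Srebf2, the gene of SREBP2, stood at 258, 256 and 262 CPM under shMed1 #2 and 297, 289 and 315 under shMed1 #4, where the controls had 351, 361 and 361. It fell by 0.47 (SE 0.0424, adjusted p = 3.32e-16) and 0.25 (SE 0.0420, adjusted p = 9.96e-07), with no overlap between any of the groups. Scap, its escort, stood at 93.0, 95.1 and 96.2 CPM in the NTC libraries, 75.3, 67.9 and 70.2 in the shMed1 #2 libraries and 82.3, 85.4 and 81.3 in the shMed1 #4 libraries. Scap fell by 0.41 (adjusted p = 3.96e-09) and 0.19 (adjusted p = 0.00620); 5830462I19Rik, on the opposite strand, shares 985 exon bases with it and had log2 fold changes of -0.38 and -0.21.

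Sterol transport showed no common direction. Stard4, a soluble sterol carrier, stood at 106, 96.2 and 105 CPM in the controls, against 86.0, 88.6 and 92.0 under shMed1 #2 and 97.1, 93.3 and 85.8 under shMed1 #4. It fell by 0.21 (SE 0.0561, adjusted p = 0.00159) and by 0.16 (SE 0.0560, adjusted p = 0.0277), and the shMed1 #4 and NTC libraries overlapped. The second call was lost without NTC replicate 1 (adjusted p = 0.131), in DESeq2 (0.116), and without NTC replicate 3 (0.107) or shMed1 #4 replicate 3 (0.191). Tmem97, an endoplasmic reticulum protein known as the sigma-2 receptor, stood at 43.3, 44.8 and 44.4 CPM under shMed1 #2 and 45.8, 49.8 and 47.2 under shMed1 #4, where the controls had 40.5, 44.6 and 42.7. Tmem97 was called with neither hairpin (0.052 and 0.16, adjusted p = 0.600 and 0.0923).

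NPC1 and NPC2 pass cholesterol out of lysosomes together, and each gene changed with a different hairpin. Npc1 stood at 72.8, 72.9 and 72.6 CPM in the NTC libraries, 69.5, 72.1 and 73.6 in the shMed1 #2 libraries and 56.8, 60.5 and 57.3 in the shMed1 #4 libraries. It fell by 0.32 with shMed1 #4 (SE 0.0622, adjusted p = 2.00e-05) and had a log2 fold change of -0.020 with shMed1 #2 (95% interval -0.14 to 0.10, adjusted p = 0.815). Rmc1, which shares 511 exon bases with Npc1 on the opposite strand, had log2 fold changes of -0.0059 and -0.17 and was not called. Npc2 stood at 143, 141 and 159 CPM in the controls, against 172, 174 and 174 under shMed1 #2 and 153, 147 and 141 under shMed1 #4. It rose by 0.23 with shMed1 #2 (SE 0.0483, adjusted p = 5.60e-05), and with shMed1 #4 its log2 fold change was -0.012 (95% interval -0.11 to 0.085, adjusted p = 0.885).

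The 3 genes of the nonsterol branches were not called lower with either hairpin. Of all genes, 21.9% were called lower with shMed1 #2 and 14.1% with shMed1 #4, and 3 genes are too few to be told from those shares. Ggps1, which makes geranylgeranyl diphosphate for protein prenylation, stood at 22.0, 23.6 and 20.2 CPM under shMed1 #2 and 20.1, 23.2 and 20.6 under shMed1 #4, where the controls had 22.8, 20.1 and 21.9. Its groups overlapped throughout, with log2 fold changes of 0.020 (95% interval -0.18 to 0.22) and -0.019 (95% interval -0.22 to 0.19). Dhdds and Nus1 encode the subunits of the enzyme that builds dolichol chains. Dhdds stood at 44.4, 41.6 and 45.7 CPM in the NTC libraries, 53.2, 46.4 and 51.3 in the shMed1 #2 libraries and 52.4, 49.9 and 50.7 in the shMed1 #4 libraries. All 6 hairpin libraries were above every NTC library. Dhdds rose by 0.20 (SE 0.0719, adjusted p = 0.0202) and 0.22 (SE 0.0719, adjusted p = 0.0165). The call with shMed1 #2 was lost without NTC replicate 2 (adjusted p = 0.112), shMed1 #2 replicate 1 (0.116) or shMed1 #2 replicate 3 (0.0627), in DESeq2 (0.0746), and with upper quartile scaling (0.0528) or library size alone (0.0873). The call with shMed1 #4 was lost without NTC replicate 2 (0.103) or shMed1 #4 replicate 1 (0.0661) and in DESeq2 (0.0743). Nus1 stood at 109, 110.4 and 112 CPM in the controls, against 117, 122 and 119 under shMed1 #2 and 104, 101 and 111 under shMed1 #4, with log2 fold changes of 0.11 (adjusted p = 0.0660) and -0.062 (adjusted p = 0.414).

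**Figure D3:**
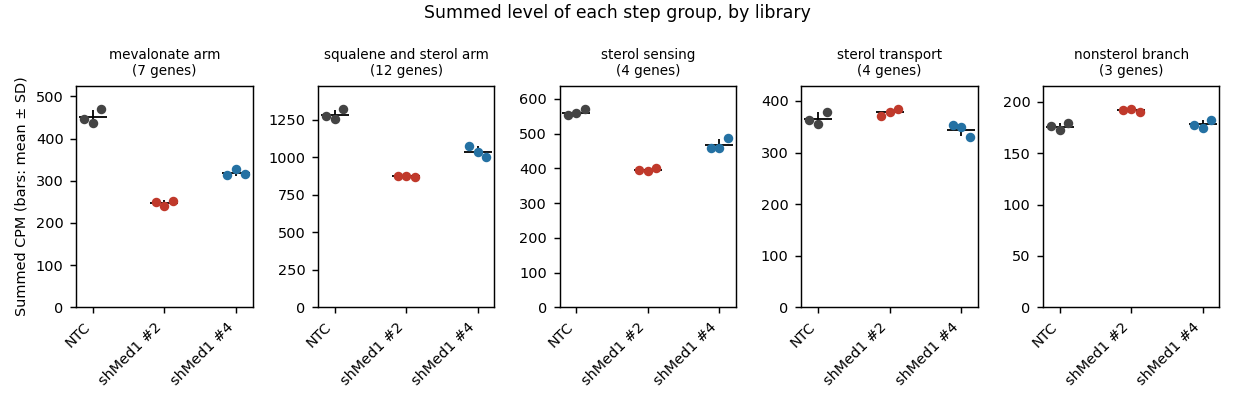
Summed CPM (y axis, from 0) of the genes of each step group in each library (points), with mean and SD (bars), for NTC, shMed1 #2 and shMed1 #4 (x axis). The mevalonate arm falls from a mean of 451 CPM in NTC to 247 and 319 CPM. The nonsterol branch has means of 176 CPM in NTC, 192 with shMed1 #2 and 178 with shMed1 #4, and its shMed1 #2 libraries all lie above the NTC libraries.

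The hairpins were then compared directly. The NTC libraries give no mean to this comparison but share in its estimate of the spread. Med1 itself was not called different between the hairpins (0.10, 95% interval -0.079 to 0.28, adjusted p = 0.461), and their libraries overlapped for it. With shMed1 #4 against shMed1 #2, 17 of the 30 genes were higher and 3 lower, where 26.0% of all genes were called, 12.9% higher and 13.1% lower. The libraries of the hairpins did not overlap for 22 of the 30 (37.5% of all genes), with shMed1 #4 the lower for 3 (18.6%). The median difference was 0.23 on the log2 scale, against 0.0083 over all genes. Of the 19 enzymes from Acat2 to Dhcr7, 14 were higher with shMed1 #4 and 0 lower. All 17 genes that were lower with both hairpins had the larger fall with shMed1 #2, and for 14 of them the difference passed the test. Among the 1380 genes of the whole table that were lower with both, 1022 (74.1%) fell more with shMed1 #2 and for 431 (31.2%) that difference passed.

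The differences were largest for Fdps (0.87, 95% interval 0.44 to 1.30, adjusted p = 0.00109), Insig1 (0.62, 0.48 to 0.76, adjusted p = 4.65e-11), Mvd (0.62, 0.41 to 0.83, adjusted p = 1.58e-06) and Dhcr7 (0.60, 0.44 to 0.77, adjusted p = 3.99e-09). Fdft1 differed by 0.45 (adjusted p = 1.57e-07), Hmgcs1 by 0.41 (adjusted p = 9.61e-10), Ebp by 0.38 (adjusted p = 0.000613), Lss by 0.32 (adjusted p = 0.000165), Cyp51 by 0.41 (adjusted p = 2.10e-10), Mvk by 0.44 (adjusted p = 3.89e-05) and Srebf2 by 0.22 (adjusted p = 4.20e-05). Sqle (0.25), Sc5d (0.26), Scap (0.22) and Acat2 (0.21) were also called higher with shMed1 #4. Msmo1, the enzyme gene with the nearest falls, differed by 0.094 (95% interval 0.0024 to 0.19, adjusted p = 0.128), a difference called with library size alone (0.0475) and without shMed1 #4 replicate 3 (0.0401). The difference of Hsd17b7 was 0.16 (95% interval -0.0062 to 0.33, adjusted p = 0.157).

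Some of these calls were narrow. Idi1 differed by 0.24 and was not called (adjusted p = 0.0568), but passed with upper quartile scaling (0.0427), library size alone (0.0346) or without shMed1 #2 replicate 1 (0.0281). Pmvk (0.36, adjusted p = 0.00833) was lost in DESeq2 (0.0655) and without shMed1 #2 replicate 2 (0.0959) or shMed1 #4 replicate 3 (0.144). Nsdhl (0.23, adjusted p = 0.00815) was lost in DESeq2 (0.0583) and without shMed1 #2 replicate 3 (0.0584), shMed1 #4 replicate 1 (0.0540) or shMed1 #4 replicate 2 (0.0838). Lower with shMed1 #4 than with shMed1 #2 were Npc1 (-0.30, adjusted p = 7.30e-05), Npc2 (-0.24, adjusted p = 5.38e-05) and Nus1 (-0.18, adjusted p = 0.00670).

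**Figure D4:**
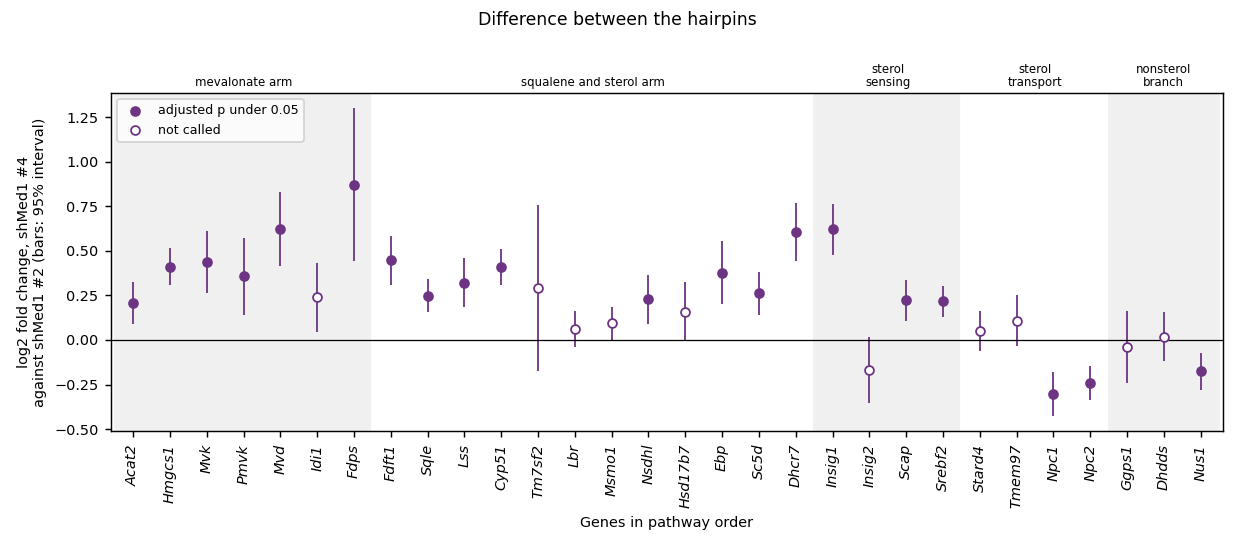
Log2 fold change of shMed1 #4 against shMed1 #2 (y axis, bars show the 95% interval) for the 30 genes in pathway order (x axis); filled points had an adjusted p under 0.05. The enzymes all lie above 0, from 0.063 for Lbr to 0.87 for Fdps, and Npc1, Npc2 and Nus1 are the called genes below it.

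Levels of different genes were compared as CPM per kilobase of annotated exon. In NTC, Srebf2 was highest (49.8 ± 0.794, SD, n = 3), followed by Cyp51 (45.1 ± 1.68), Hmgcs1 (44.9 ± 1.42), Msmo1 (44.5 ± 0.310) and Sqle (42.8 ± 2.06), and the means of Cyp51, Hmgcs1 and Msmo1 differed by less than the SDs of Cyp51 and Hmgcs1. Hsd17b7 (4.69 ± 0.452), Ggps1 (4.58 ± 0.287), Fdps (2.32 ± 0.146) and Tm7sf2 (1.23 ± 0.375) were lowest. Fdps and Tm7sf2 share 1124 and 532 exon bases with another gene on the same strand, so reads there may not have been counted for them. The length takes in all annotated exons of a gene, whether or not these cells use them, so the ranking of genes is approximate. With shMed1 #2, Hmgcs1 stood at 21.3 ± 1.22 and Msmo1 at 27.1 ± 0.540 CPM per kilobase, below Srebf2 at 36.0 ± 0.431. The 30 genes varied little between replicates: the median coefficient of variation of their CPM was 4.83% in NTC, 5.19% with shMed1 #2 and 4.71% with shMed1 #4, and Tm7sf2 had the highest in NTC (30.5%).

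Genes that feed or serve the route were read from 9 further lists, of which 103 genes were tested. Of 7 genes of acetyl-CoA and acetoacetate supply, 5 were lower and 1 higher with shMed1 #2, beside 21.9% and 21.8% of all genes. With shMed1 #4, 4 were lower and 0 higher, beside 14.1% and 14.0%, and the medians were -0.55 and -0.31. Acly, which makes cytosolic acetyl-CoA from citrate, stood at 159.9, 151 and 148 CPM under shMed1 #2 and 217, 216 and 213 under shMed1 #4, where the controls had 261, 265 and 272. Acly fell (-0.80 and -0.31). Acss2, which makes it from acetate, fell by 0.81 (adjusted p = 1.05e-20) and 0.57 (adjusted p = 2.01e-13), and Slc25a1, the mitochondrial citrate carrier, by 0.70 and 0.43. Of 9 electron donors and partner proteins, 3 were lower and 1 higher with shMed1 #2, and 3 lower and 0 higher with shMed1 #4 (medians -0.038 and -0.06); 4 of 9 called with shMed1 #2 is close to the 43.7% of all genes, and with shMed1 #4 28.2% of all genes were called. Besides Erg28, Por, the reductase that passes electrons to Cyp51 and Sqle, fell by 0.64 (adjusted p = 5.86e-19) and 0.23 (adjusted p = 0.000132).

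Of 16 genes that process SREBP or degrade its partners, 4 were lower and 4 higher with shMed1 #2, and 4 lower and 0 higher with shMed1 #4 (medians 0.025 and -0.039), beside 21.9% and 21.8% of all genes with shMed1 #2 and 14.1% and 14.0% with shMed1 #4. Mbtps1, the protease that first cuts SREBP in the Golgi, stood at 233, 248 and 244 CPM in the NTC libraries, 201, 208 and 189 in the shMed1 #2 libraries and 182, 183 and 184 in the shMed1 #4 libraries. Mbtps1 fell by 0.28 (adjusted p = 2.02e-07) and 0.40 (adjusted p = 5.57e-12). Usp20, a deubiquitinase, fell (-0.52 and -0.50), as did Vcp, an extraction ATPase (-0.27 and -0.29). Of 22 genes of cholesterol movement between membranes, 5 were lower and 6 higher with shMed1 #2, beside 21.9% and 21.8% of all genes. With shMed1 #4, 3 were lower and 1 higher, beside 14.1% and 14.0%, and the medians were -0.042 and 0.039. Gramd1b, a carrier from the plasma membrane to the endoplasmic reticulum, fell (-0.62 and -0.42). Osbp, an oxysterol-binding exchanger, fell (-0.21 and -0.20), and Osbpl1a rose (0.31 and 0.22).

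Of 11 genes of lipoprotein uptake, esterification and ester hydrolysis, 3 were lower and 5 higher with shMed1 #2, and 4 lower and 3 higher with shMed1 #4 (medians -0.036 and 0.058), where all genes were called lower and higher at 21.9% and 21.8% with shMed1 #2 and at 14.1% and 14.0% with shMed1 #4. Soat2, a cholesterol esterifying enzyme that is scarce here, stood at 6.18, 7.83 and 7.29 CPM in the controls, against 2.99, 3.02 and 1.84 under shMed1 #2 and 2.91, 2.77 and 3.01 under shMed1 #4. Soat2 fell by 1.44 (adjusted p = 4.08e-08) and 1.29 (adjusted p = 8.93e-07). Lipa, the lysosomal ester hydrolase, stood at 29.7, 31.3 and 33.5 CPM under shMed1 #2 and 34.7, 32.5 and 30.5 under shMed1 #4, where the controls had 52.2, 49.0 and 57.8. Lipa fell by 0.75 (adjusted p = 1.57e-13) and 0.70 (adjusted p = 5.22e-12). Mylip, a ubiquitin ligase that degrades lipoprotein receptors, fell (-0.90 and -0.34). Higher with both hairpins, and named after their values were seen, were among others Nceh1, a cholesterol ester hydrolase (0.45 and 0.36), and Lrp8, a lipoprotein receptor (0.16 and 0.15). Of 6 oxysterol enzymes 2 were tested, 1 lower with shMed1 #2 and 0 called with shMed1 #4.

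The last lists lie downstream of the nonsterol branch, and their counts are read against the 21.9% and 21.8% of all genes called lower and higher with shMed1 #2, and the 14.1% and 14.0% with shMed1 #4. Of 11 genes of protein prenylation, 2 were lower and 3 higher with shMed1 #2, and 0 lower and 2 higher with shMed1 #4 (medians 0.061 and -0.027); Pggt1b, a geranylgeranyl transferase subunit, rose (0.38 and 0.19), as did Chml, a Rab escort protein (0.33 and 0.25). Of 17 genes of dolichol and dolichol-linked sugars, 3 were lower and 4 higher with shMed1 #2, and 3 lower and 1 higher with shMed1 #4 (medians 0.018 and 0.0088). Alg12 (-0.86 and -0.73), Alg2 (-0.53 and -0.50) and Alg5 (-0.24 and -0.60), all of them sugar transferases of the endoplasmic reticulum, fell with both. The call of Alg5 with shMed1 #2 was narrower (adjusted p = 0.0235), and its shMed1 #2 and NTC libraries overlapped. Of 8 genes of ubiquinone synthesis, 0 were lower and 2 higher with shMed1 #2, and 1 lower and 1 higher with shMed1 #4 (medians 0.17 and 0.047); Pdss1, which builds the ubiquinone side chain, rose (0.26 and 0.33).

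**Figure D5:**
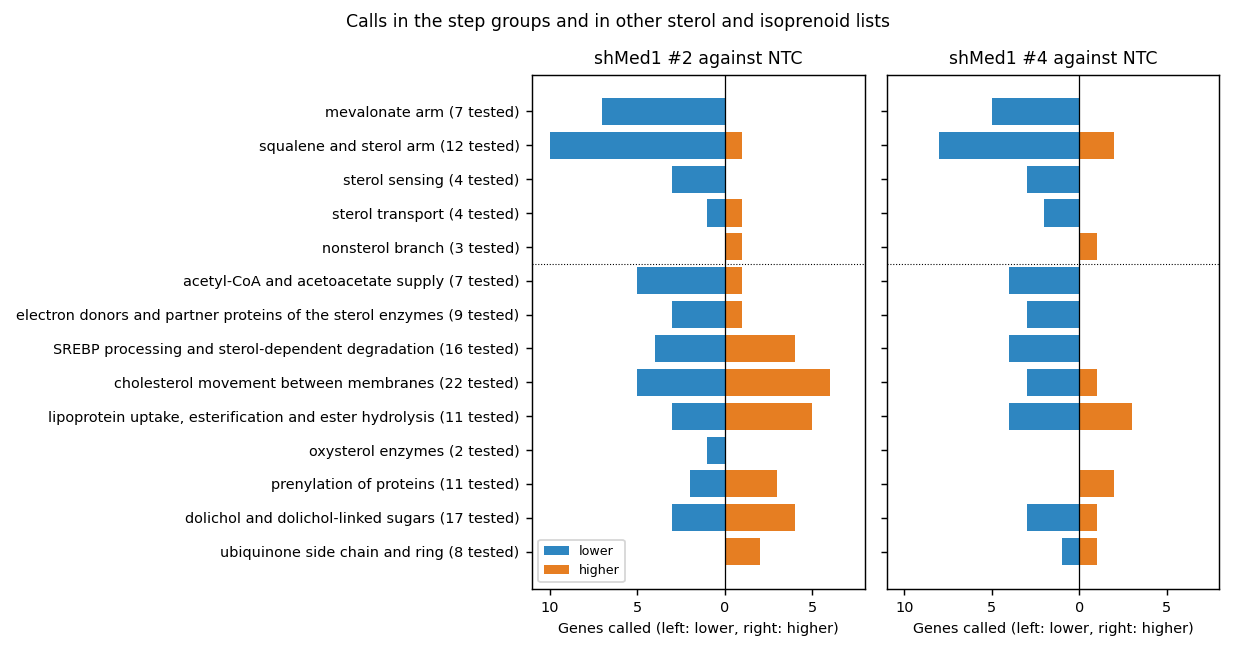
Number of genes called (x axis, lower to the left and higher to the right) in each group of the 30 genes, above the dotted line, and in the 9 other lists, below it (y axis), for shMed1 #2 (left panel) and shMed1 #4 (right panel) against NTC. The mevalonate arm has 7 of 7 and 5 of 7 genes lower, while prenylation has 2 and 0 of 11 lower, beside 21.9% and 14.1% of all genes.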

How the data were processed

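RNA of 9 D2A1-d samples (NTC, shMed1 #2 and shMed1 #4, 3 each) was sequenced on a BGISEQ-500, per the labels. The authors deposited raw counts per gene, and per the submitters' processing notes used STAR, HTSeq and GRCm38 (mm10); versions, annotation release and strand setting are not stated in any source at hand. All 9 files list 55335 genes, and 0 lines name no gene. Symbols, positions and exon lengths come from GENCODE M21 on GRCm38 (55154 identifiers matched, 30 of 30 symbols here), promoters from RefSeq.

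Genes were kept by filterByExpr (13611) and scaled by TMM (factors 0.982 to 1.02). edgeR 4.0.16 in R 4.3.3 fitted a robust quasi-likelihood model with 1 coefficient per group over all 9 samples, with Benjamini-Hochberg adjustment over all genes tested; calls are at an adjusted p under 0.05. CPM use scaled library sizes, fold changes are log2, and SEs and 95% intervals come from the fit. Paired values in parentheses are log2 fold changes, shMed1 #2 first. A count of 3 is 0.345 to 0.364 CPM; no source mentions molecular identifiers, so this covers counting error only. Counts of replicates varied beyond sampling noise (chi-square over its degrees of freedom 1.51 to 2.40).

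The genes and lists were chosen with earlier results of these data known. All 30 genes are named; of each other list, up to 3 genes called in the same direction with both hairpins, by largest mean change, and, after their values were seen, Soat1, Lamp2, Nceh1 and Lrp8. Some items are not reported here. Of 113 other symbols, 3 were not matched. Alternatives were other scalings (RLE, upper quartile, none beyond library size), no filter or at least 1 CPM in 6 libraries, DESeq2 1.42.0, no robust option, only the libraries compared, the replicate number as a block, and each library left out. Figures were drawn with matplotlib 3.10.9.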

Additional observations from a re-analysis of the deposited data

How the results depend on the processing

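Of the values of single genes under the alternatives, 1589 kept their side of the threshold, 25 lost a call and 6 gained one, and 0 called values changed sign; those that changed stand beside their genes above. With library size alone, the median log2 fold change of the 30 genes was -0.60 with shMed1 #2, -0.31 with shMed1 #4 and 0.26 between the hairpins, and with upper quartile scaling it was -0.30 with shMed1 #4. Leaving out each library in turn gave medians of -0.57 to -0.48, -0.29 to -0.23 and 0.21 to 0.25, in the same order. Genes higher with shMed1 #4 numbered 1 to 3 in those fits, with 1 (Hsd17b7) without shMed1 #4 replicate 1. DESeq2 called 2338 genes between the hairpins, against 3540. The cause was not tested. With the replicate number as a block, the counts of the 30 genes called were as without it, 21 lower and 3 higher, 18 and 3, and 3 and 17. Same-numbered libraries did not deviate together over all genes (correlations of deviations -0.041 to 0.042). A shared culture or day with a small effect could go unseen in this, and the labels do not say what the number marks. Depth limits Tm7sf2 and Fdps most.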

Other observations

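Soat1 and Lamp2 are examples, chosen after their values were seen, of genes of the further lists that were called with a single hairpin and differed between the hairpins; other genes of these lists did so too. Soat1, the main cholesterol esterifying enzyme of most cells, stood at 126, 128 and 108 CPM in the NTC libraries, 189.7, 193 and 189 in the shMed1 #2 libraries and 128, 128 and 133 in the shMed1 #4 libraries. It rose by 0.65 with shMed1 #2 (95% interval 0.56 to 0.75, adjusted p = 7.96e-20), had a log2 fold change of 0.10 with shMed1 #4 (adjusted p = 0.138), and differed between the hairpins by -0.55 (adjusted p = 1.09e-15), while Soat2 was lower with both. Lamp2, a lysosomal membrane protein that binds cholesterol, stood at 160.5, 167 and 162 CPM in the controls, against 158, 148 and 148 under shMed1 #2 and 86.2, 89.1 and 79.1 under shMed1 #4. It fell by 0.95 with shMed1 #4 (SE 0.0521, adjusted p = 2.81e-27), had a log2 fold change of -0.11 with shMed1 #2 (adjusted p = 0.0577), and differed between the hairpins by -0.84 (adjusted p = 7.43e-24).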
